A study of Rattus norvegicus with 15 samples.

Results

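Fn1, Sparc and Spp1 encode fibronectin, SPARC (osteonectin) and osteopontin, and are followed here through the segments of rat Achilles tendon. The 3 genes were taken by their Ensembl identifiers, ENSRNOG00000014288 for Fn1, ENSRNOG00000012840 for Sparc and ENSRNOG00000043451 for Spp1, out of 32883 genes in the deposited count table, and all 3 were among the 15037 genes that passed the filter on low counts. The names come with the choice of these identifiers, since 0 of the 32883 identifiers could be given a symbol from the gene table used here. The tissue came from 5 healthy, untreated male Sprague-Dawley rats aged 8 weeks, whose tendons were cut between the myotendinous junction and the enthesis and divided into 3 equal lengths, distal, middle and proximal. Both limbs of a rat were pooled by segment, so that each region has 5 libraries, 1 per rat, and each rat has all 3 regions. The distal segment lies toward the heel bone and the proximal segment toward the calf muscle.

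Fibronectin is a large glycoprotein that cells assemble into fibrils through integrins, and collagen and growth factors bind to these fibrils. SPARC and osteopontin are called matricellular proteins: they are secreted into the matrix and modulate how cells interact with it rather than forming its main fibres. SPARC binds collagen and calcium and is known for its part in collagen fibril assembly in connective tissue, tendon included. Osteopontin is an acidic, phosphorylated protein that binds integrins and CD44, and is known from bone, mineralised cartilage and macrophages.

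Library totals were 23530376 to 30178952 counts in distal, 18866801 to 27817554 in middle and 15413963 to 22205927 in proximal tendon. Levels below are CPM, counts scaled to a common library size, after TMM, a correction for differences in library composition. The lowest count of the 3 genes was 180, for Spp1 in the proximal library of rat 4, which gives 10.02 CPM with a 95% Wilson interval of 8.66 to 11.6 CPM that covers counting error only. Genes of the proximal end moved between libraries in a way that the regions alone do not describe. These 112 genes, at least 3 log2 units higher in proximal than in distal tendon of rats 3 and 4 and at least 10 CPM in the proximal libraries of both, had a median of 0.510 to 0.652 CPM in distal libraries and 0.707 to 0.980 CPM in the middle libraries of rats 1 to 4. In libraries that played no part in choosing them, their median was 12.1 CPM in the middle library of rat 5, and 6.21, 0.579 and 89.5 CPM in the proximal libraries of rats 1, 2 and 5. The proximal libraries of rats 3 and 4, at 106 and 51.8 CPM, are high by the choice of the genes. None of the 3 genes is in this set. The part these genes, or the material they mark, have in the results below was not tested. Values without the 4 libraries whose median was over 10 CPM are given. The proximal library of rat 1, at 6.21 CPM, is kept there. In pieces of tissue, fewer cells of a type and less RNA per cell cannot be told apart.

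The values of the 3 genes ran differently along the tendon. Between the ends, the ratio of Spp1 to Fn1 did not pass a test (adjusted p = 0.804, exact permutation of regions inside each rat). Their difference in the middle segment was not tested. Fn1 was 6.81-fold lower in proximal than in distal tendon and was lower in all 5 rats, on average mostly through a drop between the distal and the middle segment. Spp1 was 7.96-fold lower in proximal than in distal tendon, but where along the tendon its level dropped, and by how much, differed from rat to rat. This fall of Spp1 passed the test in 28 of 30 alternative settings, against 30 of 30 for Fn1. It did not pass with the level of the proximal-end genes as a covariate, nor without the 4 libraries with a proximal-end median over 10 CPM. Sparc, at rank 2 of the genes tested by mean level, did not pass the test in any comparison of regions. Its level was nearly the same in all distal segments and ranged 4.12-fold among proximal segments. For all 3 genes the spread between rats on the log2 scale was smallest in distal segments, as was the median spread over all genes tested. Of the 15037 genes tested, 19.7% were called lower in proximal than in distal tendon (edgeR's quasi-likelihood test, with a term for the rat, at a Benjamini-Hochberg adjusted p under 0.05), and 2 of the 3 genes were called in that direction. The plot of level by segment shows the values of each gene in each rat.

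**Figure D1:**
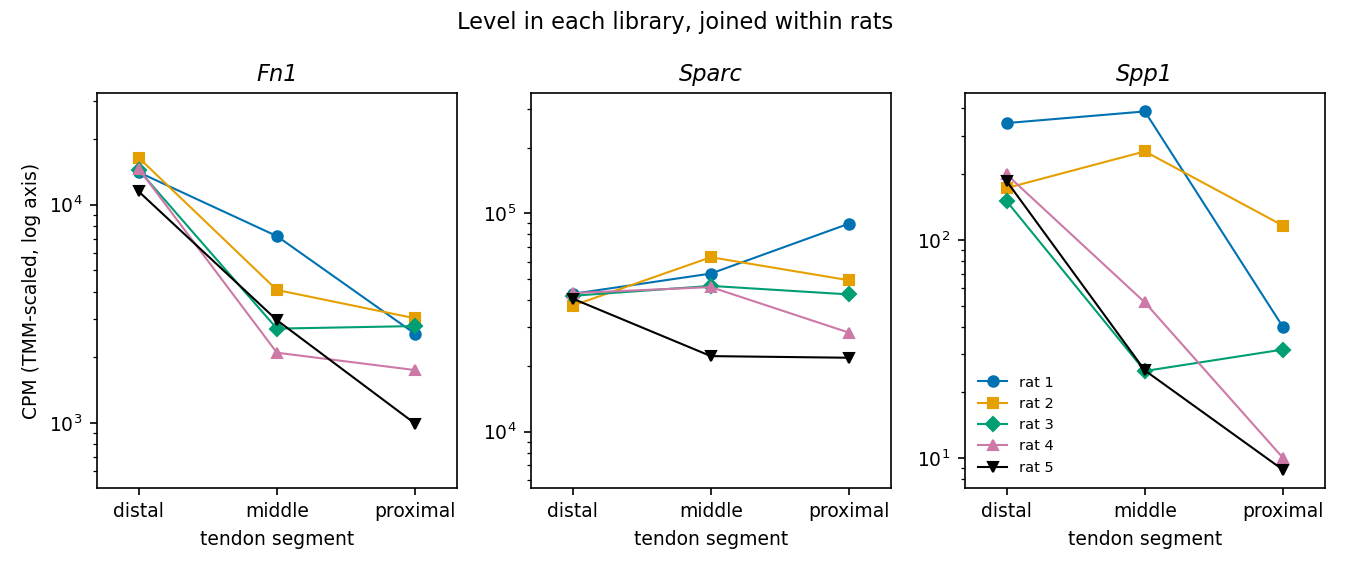
Level of Fn1, Sparc and Spp1 (CPM after TMM scaling, log axis with the same 64-fold span in each panel) in the distal, middle and proximal segment, with the 3 libraries of a rat joined by a line. All 5 Fn1 lines drop from distal to middle, the Sparc lines start together and spread apart, and the Spp1 lines of rats 1 and 2 stay high in the middle segment.

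The sequence upstream of the start site is shown for Spp1, 1 of the 2 genes that fell, and for Sparc, which did not pass the test, to set the pair side by side. The RefSeq promoter table for build GRCr8, another build than the rn6 used for the counts, had entries for 2 of the 3 genes. The 250 bases before the start lie on the minus strand at chr14:5619805-5620054 for Spp1 and at chr10:40038817-40039066 for Sparc, and are printed 5′ to 3′ with motif matches in capitals.
Spp1: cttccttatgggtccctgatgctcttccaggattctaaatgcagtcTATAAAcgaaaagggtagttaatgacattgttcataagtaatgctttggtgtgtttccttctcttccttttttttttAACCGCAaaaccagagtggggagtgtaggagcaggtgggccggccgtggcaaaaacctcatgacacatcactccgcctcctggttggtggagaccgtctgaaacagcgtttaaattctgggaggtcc
Sparc: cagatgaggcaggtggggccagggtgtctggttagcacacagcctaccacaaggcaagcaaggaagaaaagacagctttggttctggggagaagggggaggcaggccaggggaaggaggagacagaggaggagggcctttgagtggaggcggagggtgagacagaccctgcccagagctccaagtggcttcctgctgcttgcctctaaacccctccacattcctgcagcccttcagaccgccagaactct
Both strands were searched for the TATA box TATAAA, for the CCAAT box by its letters CCAAT, for the GC box GGGCGG, for the AP-1 motif TGANTCA, and for the Runx motif, written AACCGCA in one form and AACCACA in another. No match overlapped another. The Spp1 window held TATAAA, 204 to 199 bases before the start, and AACCGCA, 127 to 121 bases before it. Among the 33469 windows of this length in the table, 12.9% held TATAAA and 1.20% held AACCGCA. The Sparc window held none of these letters, which are found in 34.0% of windows for CCAAT, 30.5% for GGGCGG, 6.34% for TGANTCA and 4.59% for AACCACA. GC content was 46.8% upstream of Spp1 and 60.0% upstream of Sparc, against a median of 51.2% over all windows. These matches describe the letters only, and no binding or chromatin was measured here.

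Counts of Fn1 were among the highest of distal tendon, without correction for transcript length. Fn1 stood at 14083, 16423, 14429, 14605 and 11495 CPM in the distal segments of rats 1 to 5, and had rank 4 by counts in each. In the middle segments it stood at 7178, 4068, 2707, 2099 and 2959 CPM. In the proximal segments it stood at 2562, 3017, 2780, 1748 and 993 CPM. Every distal library lay above every middle and every proximal library, while middle and proximal libraries overlapped, as they did for Sparc and Spp1 (0.652% of genes had all middle above all proximal libraries). Among all genes tested, 12.6% had all distal above all proximal libraries and 7.49% all distal above all middle libraries. The rank of Fn1 by counts ran from 8 to 21 in middle and from 11 to 52 in proximal libraries.

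From distal to proximal tendon Fn1 fell by 2.77 on the log2 scale (approximate SE 0.279, 95% interval -3.38 to -2.15, edgeR adjusted p = 5.8e-05). Subtracted within rats, log2 CPM differed by -2.77 ± 0.506 (SD, n = 5), and the rats lay between -3.53 and -2.38. Of the 15037 genes, 101 had a lower log2 fold change than Fn1, and 1 of these was among the 100 most abundant genes, of which 44 were called lower and 12 higher in proximal tendon. In rat 2, whose proximal-end genes were at 0.579 CPM in the proximal segment, the log2 difference was -2.44, a 5.44-fold lower level. With the proximal-end genes' mean level as a covariate the log2 fold change was -2.81 (edgeR adjusted p = 0.00898). With the 4 libraries left out in which those genes had a median over 10 CPM it was -2.76 (edgeR adjusted p = 0.00562), and only the proximal libraries of rats 1 and 2 then stand for that end.

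On average most of this change lay between the distal and the middle segment. Fn1 fell by 2.01 on the log2 scale from distal to middle tendon, a 4.02-fold difference (approximate SE 0.273, edgeR adjusted p = 0.0011), in a comparison in which 11.6% of genes were called lower in the middle. From middle to proximal tendon it was at a log2 fold change of -0.76 (edgeR adjusted p = 0.147, approximate SE 0.266), which did not pass, where 0.140% of genes were called lower in proximal tendon. DESeq2 put the adjusted p of that step at 0.0387, at a log2 fold change of -0.75. Fn1 was lower in the proximal than in the middle segment in 4 of 5 rats and nearly level in rat 3, at a log2 difference of 0.04.

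The rats divided the decrease differently. In rats 2, 3 and 4 the step from distal to middle made up 82.4%, 102% and 91.4% of the whole log2 difference between the ends. In rats 1 and 5 it made up 39.5% and 55.4%, and Fn1 dropped again 2.80-fold and 2.98-fold from middle to proximal. The middle libraries of rats 1 and 5 were also those in which 16 distal-end genes, chosen in rats 3 and 4 by the same rule turned around, had medians of 19.9 and 6.93 CPM, against 1.68 to 2.99 CPM in the other middle libraries. Whether that belongs with the Fn1 values was not tested. The plot of within-rat differences shows both steps for each rat.

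**Figure D2:**
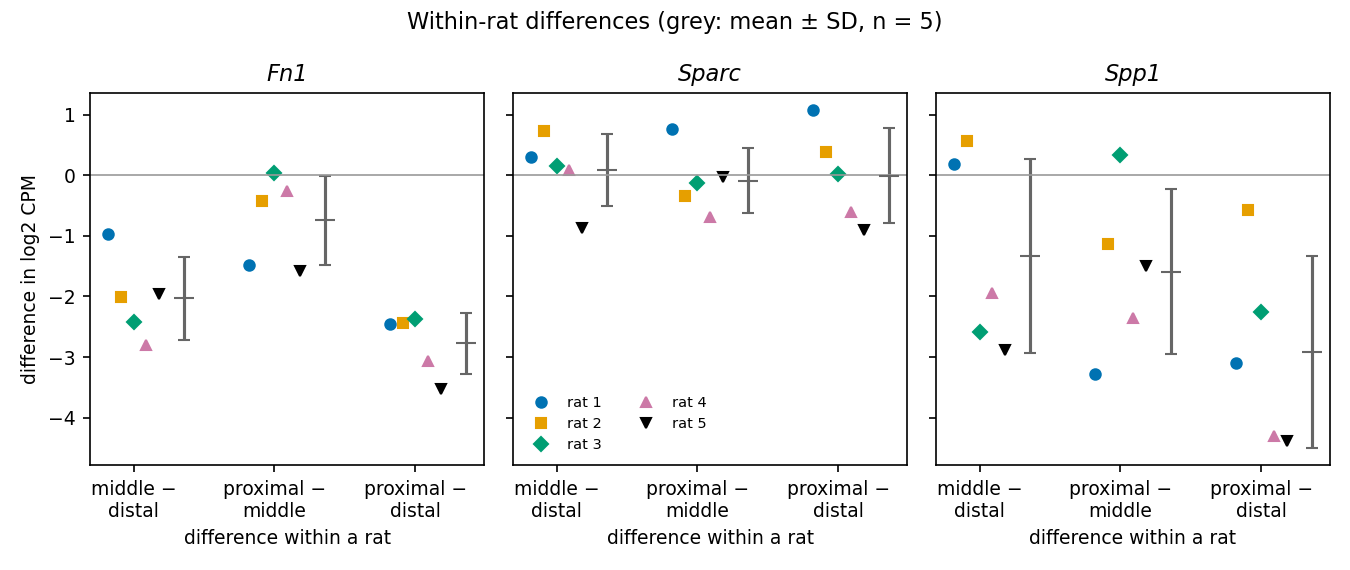
Differences in log2 CPM between segments of the same rat for Fn1, Sparc and Spp1, with 1 symbol per rat and the mean ± SD over 5 rats in grey. Fn1 is below 0 in all 5 rats for middle minus distal and proximal minus distal, Sparc lies on both sides of 0 in every difference, and the first step of Spp1 is above 0 in rats 1 and 2 and below -1.9 in the others.

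Counts of Sparc were higher still and had no common direction. Sparc stood at 42774, 37782, 41912, 43120 and 40674 CPM in the distal segments of rats 1 to 5. It stood at 52985, 62944, 46518, 45944 and 22183 CPM in the middle segments. It stood at 89755, 49356, 42518, 28401 and 21804 CPM in the proximal segments. The 3 regions overlapped, and the spread widened. The highest library exceeded the lowest 1.14-fold in distal, 2.84-fold in middle and 4.12-fold in proximal tendon. In the same order, these folds were 1.43, 3.42 and 3.04 for Fn1 and 2.28, 15.5 and 13.1 for Spp1, so the widening was not particular to Sparc. By counts Sparc had rank 3 in all distal and rank 2 in all middle and proximal libraries.

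The log2 fold change of Sparc was -0.01 from distal to proximal (approximate SE 0.283, 95% interval -0.63 to 0.61, edgeR adjusted p = 0.976). From distal to middle it was 0.06 (95% interval -0.56 to 0.67, edgeR adjusted p = 0.908), and from middle to proximal -0.07 (95% interval -0.68 to 0.55, edgeR adjusted p = 0.917). As folds, the interval for proximal against distal runs from 0.645 to 1.53, so a moderate change in either direction lies within it. Relative to its distal segment, the proximal segment had more Sparc in rats 1 and 2, at log2 differences of 1.07 and 0.39, nearly the same amount in rat 3 at 0.02, and less in rats 4 and 5 at -0.60 and -0.90.

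Between the 5 distal libraries Sparc had an SD of 0.0772 log2 units, and 13.3% of genes tested had a lower SD there. It was 0.575 in middle and 0.785 in proximal tendon, where 83.3% and 90.9% of genes had a lower one. The median SD over all genes was 0.177, 0.255 and 0.248 in the 3 regions, and the widening for Sparc was not tested. For Fn1 the SD was 0.186, 0.682 and 0.662, and 52.4%, 89.0% and 86.9% of genes had a lower one. The 4 libraries with a proximal-end median over 10 CPM included the lowest middle value of Sparc and its 3 lowest proximal values. Without them the log2 fold change from distal to proximal was 0.65 (approximate SE 0.295), which did not pass the test (edgeR adjusted p = 0.154). With the covariate it was 0.73 (edgeR adjusted p = 0.35). The sign of this difference therefore turned with these settings, as it did in several with 1 rat or library left out.

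Counts of Spp1 were far lower and the most variable of the 3. Spp1 stood at 343, 173, 150, 199 and 186 CPM in the distal segments of rats 1 to 5. In the middle segments it stood at 387, 254, 25.1, 51.7 and 25.2 CPM. In the proximal segments it stood at 39.8, 116, 31.5, 10.02 and 8.84 CPM. All distal libraries lay above all proximal libraries, as they did for 12.6% of all genes tested. The middle libraries fell on both sides: those of rats 1 and 2 lay above the distal segment of the same rat, and those of rats 3, 4 and 5 were 5.98-fold, 3.85-fold and 7.34-fold below it.

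From distal to proximal tendon Spp1 fell by 2.99 on the log2 scale (approximate SE 0.678, 95% interval -4.51 to -1.48, edgeR adjusted p = 0.00625), and 73 of 15037 genes had a lower log2 fold change. The within-rat difference was -2.92 ± 1.58 (SD, n = 5), below 0 in 5 of 5 rats, and ranged from -0.57 in rat 2 to -4.38 in rat 5. As folds these are 1.49 and 20.8. Rat 2, with the smallest difference, had its proximal-end genes at 0.579 CPM in the proximal segment, and rats 4 and 5, with the largest differences, at 51.8 and 89.5 CPM. Rat 1 had an 8.59-fold difference at 6.21 CPM and rat 3 a 4.77-fold difference at 106 CPM. The levels of rats 3 and 4 are high by the choice of these genes, and whether the 2 measures go together was not tested. The call was lost with the proximal-end covariate (log2 fold change -1.95, approximate SE 1.12, edgeR adjusted p = 0.276). Because the covariate overlaps with the comparison of the ends, this loss cannot tell what part the proximal-end genes have. It was also lost without the 4 libraries with a proximal-end median over 10 CPM (log2 fold change -2.48, approximate SE 1.04, edgeR adjusted p = 0.146). Only the proximal libraries of rats 1 and 2 then stand for that end. Without the rat block the log2 fold change was -2.35 and passed (edgeR adjusted p = 0.0448).

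Neither single step passed the test for Spp1. From distal to middle the log2 fold change was -1.40 (approximate SE 0.647, 95% interval -2.85 to 0.05, edgeR adjusted p = 0.146), below 0 in 3 of 5 rats, and without the rat block it was -0.50 (edgeR adjusted p = 0.722). From middle to proximal it was -1.59 (approximate SE 0.647, 95% interval -3.04 to -0.14, edgeR adjusted p = 0.205), below 0 in 4 of 5 rats. The intervals are for single genes and are not adjusted for the number of genes tested. On the log2 scale the SD over rats was 0.455 for distal, 1.86 for middle and 1.53 for proximal segments, and 99.3% of genes had a lower SD in middle tendon. In rat 1 the decrease came after the middle segment, with 343 CPM in the distal, 387 CPM in the middle and 39.8 CPM in the proximal segment. In rat 3 it came before the middle segment, and the proximal value of 31.5 CPM was slightly above the 25.1 CPM of the middle.

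**Figure D3:**
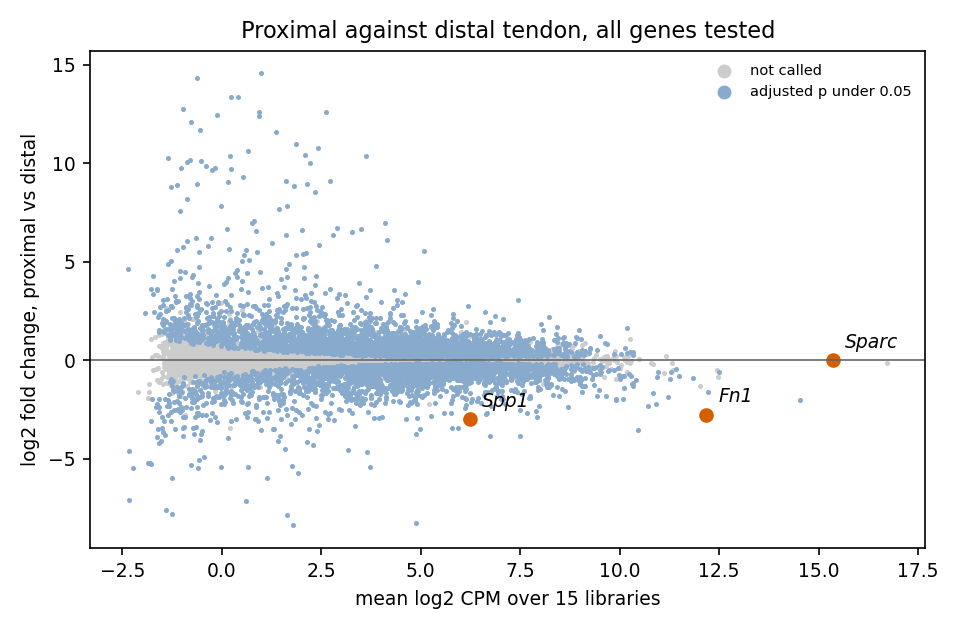
Log2 fold change of proximal against distal tendon for all 15037 genes tested against their mean log2 CPM over 15 libraries, with genes of adjusted p under 0.05 in blue and the 3 genes in orange. Fn1 at -2.77 and Spp1 at -2.99 lie near the lower edge of genes of their abundance, and Sparc at -0.01 lies on the zero line far to the right.

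Ratios between 2 genes in the same library do not depend on how that library was scaled. They are given as counts of one gene per 1000 counts of the other, without correction for transcript length, so only their change along the tendon can be read. Per 1000 counts of Sparc there were 329, 435, 344, 339 and 283 counts of Fn1 in the distal segments of rats 1 to 5. There were 135, 64.6, 58.2, 45.7 and 133 in the middle segments. There were 28.5, 61.1, 65.4, 61.5 and 45.6 in the proximal segments. The distal values lay above all others, and the proximal values of rats 3 and 4 lay slightly above the middle values of the same rats.

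The log2 ratio of Fn1 to Sparc was lower in proximal than in distal tendon by a mean difference of -2.77 ± 0.456 (SD, n = 5 rats, 5 of 5 below 0; two-sided p = 0.00180 by exact permutation of the 3 regions inside each rat, adjusted p = 0.00270 over the 3 ratios). The corresponding difference for Spp1 to Sparc was -2.92 ± 1.30 (5 of 5 below 0; p = 0.00129, adjusted p = 0.00270, exact permutation). For Spp1 to Fn1 the difference was -0.15 ± 1.24 (3 of 5 below 0; p = 0.804, adjusted p = 0.804, exact permutation). These permutations exchange the middle segment with the ends as well, over 7776 arrangements, and the smallest p they can give is 0.000257. With sign flips of the 5 distal and proximal pairs alone, neither ratio to Sparc passed (adjusted p = 0.0938 for both), in a design whose smallest exact p is 0.0625.

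Between the ends the folds of Fn1 and Spp1 were 6.81 and 7.96, but their ratio varied on the way. Per 1000 counts of Fn1 there were 24.3, 10.5, 10.4, 13.6 and 16.2 counts of Spp1 in the distal segments of rats 1 to 5. In the middle segments there were 54.0, 62.5, 9.26, 24.6 and 8.53. In the proximal segments there were 15.5, 38.5, 11.3, 5.73 and 8.90. The middle ratio was thus 2.22 times the distal ratio in rat 1 and 5.94 times in rat 2, where Fn1 had dropped and Spp1 had not. Rats 3 and 5 had a lower ratio in the middle than in the distal segment.

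**Figure D4:**
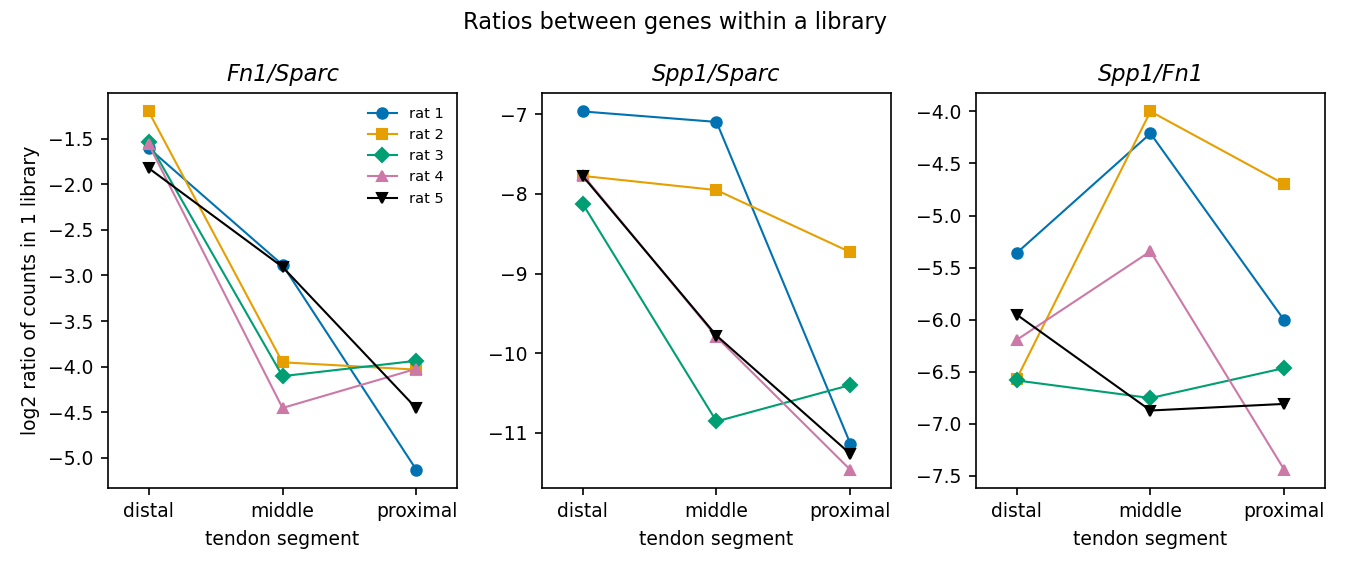
Log2 ratios of counts between Fn1, Sparc and Spp1 within each library by tendon segment, with the 3 libraries of a rat joined and a separate linear axis in each panel. The ratios to Sparc end lower at the proximal end in all 5 rats, and the ratio of Spp1 to Fn1 rises in the middle segment of rats 1, 2 and 4.

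Genes of like pattern were ranked by Pearson r of log2 CPM over the 15 libraries after subtraction of each rat's mean, among 9871 other genes averaging at least 3 log2 CPM. The libraries share rats, scaling and the 3 regions, so r is a description. Fn1 had 672 genes at r of at least 0.9, Spp1 had 89 and Sparc had 42. The gene most like Fn1 was ENSRNOG00000001224 (r = 0.993), with distal, middle and proximal levels of 67.3 ± 13.8, 24.9 ± 10.9 and 16.4 ± 6.18 CPM (SD, n = 5). The gene most like Spp1 was ENSRNOG00000011714 (r = 0.961), at 12.7 ± 2.50, 10.4 ± 1.43 and 8.93 ± 1.21 CPM (SD, n = 5), a far smaller change in the same order. The gene most like Sparc was ENSRNOG00000007455 (r = 0.981), whose means were also close together, at 21.6 ± 3.73, 24.0 ± 7.64 and 23.5 ± 12.0 CPM (SD, n = 5). The deposited table does not pair these identifiers with names. Between the members, r was 0.860 for Fn1 and Spp1, -0.00263 for Fn1 and Sparc and 0.226 for Sparc and Spp1.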

How the data were processed

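Poly(A) RNA was sequenced as stranded paired-end libraries from 3 Achilles tendon segments of 5 rats. The deposited table holds raw counts per Ensembl gene as the authors deposited them, without normalization. The submitters' processing notes name the rn6 build, featureCounts 2.0.1, HISAT2 2.2.1, fastp 0.19.10 and SAMtools 1.9. Their options, the annotation and the use of strand are not stated there, so counts may include reads of overlapping or antisense genes, and counts per gene do not separate splice forms such as those of Fn1. Each of the 15 column names gives the region and rat of its sample.

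Counts were filtered with filterByExpr, scaled by TMM and fitted in edgeR 4.0.16 (R 4.3.3) by robust quasi-likelihood. Region and rat were terms in a single model of 15 libraries, as tested on simulated data. The simulated counts had far fewer changed genes than were called here, so they do not cover changes as wide as those of these data. P-values were adjusted by Benjamini-Hochberg over 15037 genes, with a threshold of 0.05. Standard errors, the fold change over the root of F, are approximate, and intervals use the fit's degrees of freedom. Log2 CPM used a prior count of 2, and log2 ratios an offset of 0.5. The labels name the rat of each library, which pairs the samples by animal. Deviations from region means correlated over 0.1 in 13 of 15 same-rat pairs of libraries. The mean r was 0.268 in same-rat pairs and -0.0702 in pairs from different rats. Same-region libraries differed by at least 21.6 chi-square units per degree of freedom, so none was a copy of another. Wilson intervals cover counting error only.

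The 3 members, the gene lists and the sets of end genes were chosen with earlier results of these data known. Named genes are the members and, for each, the most correlated gene. The rule named 3 genes for each member, of which 1 is printed because identifiers have no symbols here. For the same reason the lists of other matricellular genes, mineralised-tissue relatives, receptors, focal adhesion linkers, matrix partners, mineralisation genes and cell type markers could not be applied, so the labelled tissue was not checked against markers. Alternatives were no rat block, no filter, RLE and upper-quartile scaling, DESeq2 1.42.0, limma 3.58.1, a fit that is not robust, library sizes without the 10 most abundant genes, the proximal-end covariate, and leaving out rats or libraries. The removal of 4 libraries together was added after seeing the data.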

Additional observations from a re-analysis of the deposited data

How the results depend on the processing

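The fall of Fn1 from distal to proximal and from distal to middle tendon passed the threshold in 30 of 30 alternatives each, at log2 fold changes of -2.93 to -2.59 and -2.29 to -1.81 (edgeR, limma and DESeq2). The fall of Spp1 between the ends passed in 28 of 30. It lost the call with the proximal-end covariate (-1.95) and without the 4 libraries of high proximal-end level (-2.48), and the cause was not tested. Of the remaining member comparisons, 1 gained a call in 1 setting: Fn1 from middle to proximal with DESeq2 (-0.75). Sparc passed in no alternative, and its sign turned. From distal to proximal it was 0.17 without the rat block, 0.73 with the covariate and 0.65 without the 4 libraries, and -0.30 to 0.25 over removals of a rat or library. From distal to middle it was -0.13 to 0.31 over the same removals. From middle to proximal it was 0.0079 without the block, 0.48 with the covariate, 0.31 without the 4 libraries and -0.33 to 0.080 when a rat or library was removed. Flipping signs within pairs of distal and proximal libraries changes only the p of the ratios. The differences to Sparc are the same by construction, at -2.77 for Fn1 and -2.92 for Spp1. The adjusted p of both is then 0.0938 (exact sign flips), since 5 pairs cannot give an exact p under 0.0625. The difference for Spp1 to Fn1 was -0.66 to 0.12 with a rat left out. Over all genes, 6300 were called from distal to proximal, 2218 with the covariate and 3472 without the 4 libraries. From distal to middle 3731 were called, 2303 without the block and between 1849 (rat 4 removed) and 3780 over those removals. From middle to proximal 62 were called, 3100 at an unadjusted p under 0.05, 1170 with DESeq2, 5 with limma, 124 in the fit that is not robust, 0 (edgeR) without the block (2204 at an unadjusted p under 0.05), with the covariate (1054) or without the 4 libraries (1516), and 0 (2668 at an unadjusted p under 0.05 with rat 3 left out) to 536 (the proximal library of rat 2 left out). Leaving out the block changed no call of the 3 genes, but moved Spp1 from -2.99 to -2.35 between the ends and from -1.40 to -0.50 from distal to middle.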
